A study of Mus musculus with 8 samples.

Results

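The NRF2 pathway was followed through 10 genes, matched by symbol to the 16640 rows of the authors' deposited table: the transcription factor gene Nfe2l2, its inhibitor Keap1, and 8 genes widely known as NRF2 targets (Gclc, Gclm, Gsr, Nqo1, Hmox1, Txnrd1, Srxn1 and Ugdh). All 10 were found. The samples were whole livers of 1-year-old mice on a chow diet, 4 labelled WT and 4 labelled as a liver-specific KO of Huwe1 (Huwe1_LKO), a gene for a HECT-type ubiquitin ligase. The labels name neither the Cre driver nor the sex of the mice. For each gene the deposited table holds 1 depth-normalized read value per genotype. The authors summarised it over 4 livers in a way that the sources used here do not state. So no value per liver is printed and no spread between livers could be computed. These values sum over all genes to 17347886 for WT and 17533080 for Huwe1_LKO. Errors given below are standard errors (SE) of the log2 fold change of Huwe1_LKO over WT that the deposited p implies, and a gene is said to have risen or fallen where the authors' adjusted p was under 0.05. Huwe1, the check of the labels, went from 2666 normalized reads in WT to 1784 in Huwe1_LKO per the authors' deposited table, which is 66.9% of the WT level (adjusted p = 0.000425).

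NRF2, the product of Nfe2l2, is held in the cytosol and handed to degradation by KEAP1, an adaptor of a cullin ubiquitin ligase. When electrophiles or oxidants modify KEAP1, NRF2 accumulates, enters the nucleus, pairs with small MAF proteins and binds antioxidant response elements near genes of glutathione synthesis, thioredoxin reduction, quinone reduction, haem breakdown and conjugation. In liver this programme is best known for protecting hepatocytes from reactive drug products. Control acts mainly on NRF2 protein, which was not measured here.

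Of the 10 genes, 1 rose (Gclm) and 2 fell (Ugdh and Srxn1) in the authors' deposited table, while 7 did not pass. Over all genes listed, 9.97% were called, 4.41% as higher and 5.56% as lower. Of those calls 44.2% were higher, and 65.1% were with the most abundant eighth of genes centred on 0. All 10 genes had a mean of both group values of 100 or more, and among the 8793 genes at that level 15.0% were called, 5.95% as higher and 9.04% as lower. The log2 fold change was above 0 in 2 of the 10 genes and below 0 in 8, with a median of -0.11 against 0.02 over all genes listed and -0.02 over the 8793. The 3 calls were spread over 3 branches of the pathway: glutathione synthesis, conjugation and repair of peroxiredoxins.

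The sequences just upstream of the 3 genes that passed are shown because each holds the core of the element through which NRF2 is known to act, although Gclm rose and Ugdh and Srxn1 fell. They come from RefSeq promoter windows (GRCm38.p6, the assembly also called mm10) and are written 5′ to 3′ on the strand of each gene. Capitals mark every match, on either strand, to the core of the antioxidant response element, TGACNNNGC or TGAGNNNGC. Gclm lies on the plus strand (chr3:122245307-122245486), Ugdh on the minus strand (chr5:65435950-65436092) and Srxn1 on the plus strand (chr2:152105274-152105515), and each stretch stops before the first annotated exon of its gene.
Gclm: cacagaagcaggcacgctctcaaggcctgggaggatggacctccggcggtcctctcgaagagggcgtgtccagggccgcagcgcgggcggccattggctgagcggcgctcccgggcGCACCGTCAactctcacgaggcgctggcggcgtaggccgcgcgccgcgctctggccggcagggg
Ugdh: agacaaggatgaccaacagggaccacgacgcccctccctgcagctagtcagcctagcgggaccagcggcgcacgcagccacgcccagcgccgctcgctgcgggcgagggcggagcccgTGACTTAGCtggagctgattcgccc
Srxn1: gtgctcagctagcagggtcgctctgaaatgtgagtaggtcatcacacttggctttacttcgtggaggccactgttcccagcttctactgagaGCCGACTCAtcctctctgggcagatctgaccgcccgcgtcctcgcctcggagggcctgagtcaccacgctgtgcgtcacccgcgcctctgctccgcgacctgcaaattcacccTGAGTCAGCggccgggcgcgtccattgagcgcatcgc

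In the 250 bases before the start used in the RefSeq table, Gclm had 1 match, beginning 134 bases upstream on the opposite strand. Ugdh had 2, beginning 132 and 94 bases upstream, the nearer one inside a longer first exon of the GENCODE annotation and therefore not printed. Srxn1 had 2, beginning 158 and 45 bases upstream, and the nearer one also contains TGAGTCA, the core of an AP-1 site. Gclm and Ugdh thus both carried a TGACNNNGC match, but its distance depends on the start used. Of the 250 bases, 180 lie before the outermost annotated start for Gclm and 143 for Ugdh. Of the 7 members with an entry in the promoter table, 5 had a match in at least 1 window (Nfe2l2, Srxn1, Gclm, Ugdh and Txnrd1, the last in 1 of its windows), as did 25.7% of 27025 genes and 23.0% of 32851 windows. The Txnrd1 match lies inside the annotated span of that gene. For Nfe2l2, the bases after the start of its window were not found near the start of a GENCODE transcript, as they were for the other windows. Nqo1 and Keap1 had none in these windows. Gclc, Gsr and Hmox1 had no entry in that table.

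**Figure D1:**
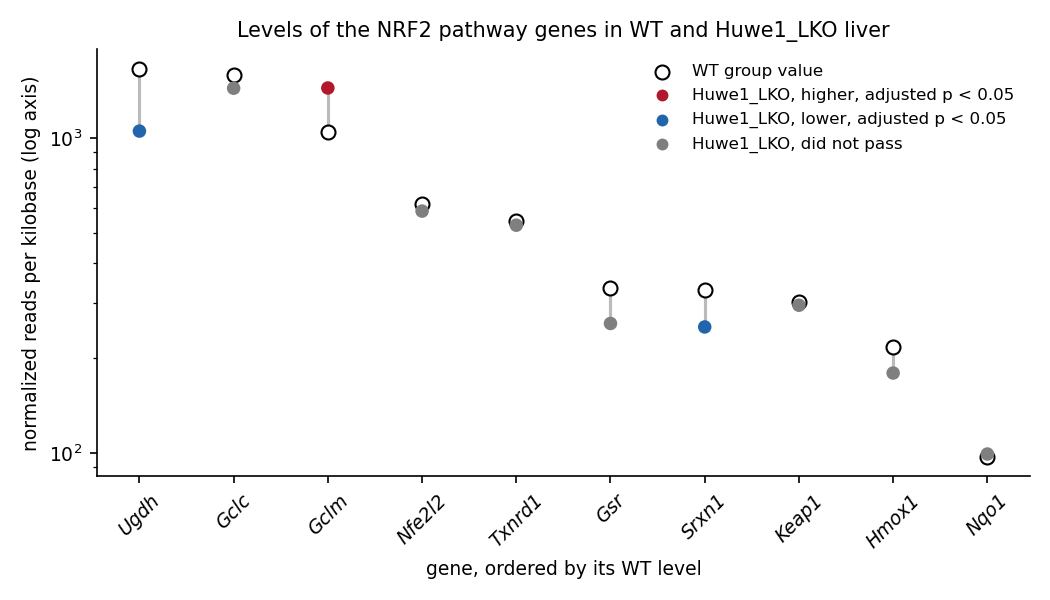
Group value of each of the 10 genes in normalized reads per kilobase of gene length (log axis), ordered by the WT level; open circles are WT, filled circles Huwe1_LKO, coloured by the authors' call. Ugdh, Gclc and Gclm stand above 1000 in both genotypes, and in Huwe1_LKO Gclm (1442) and Gclc (1440) lie at nearly the same level, above Ugdh (1052).

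Divided by gene length, so that genes can be compared with each other, the group values of the members spanned a wide range. Ugdh (1661 normalized reads per kilobase), Gclc (1584) and Gclm (1046) were the most abundant in WT, above 93.2% to 95.3% of all genes listed. Nfe2l2 followed with 618 and Txnrd1 with 544 normalized reads per kilobase in WT. Gsr (335), Srxn1 (329), Keap1 (301) and Hmox1 (217) came next on the same scale, and Nqo1 was the least abundant with 97.2 in WT and 99.3 in Huwe1_LKO. With no values per liver, which neighbours in this order differ beyond their spread was not tested. In Huwe1_LKO the order at the top was Gclm (1442), Gclc (1440) and Ugdh (1052).

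Neither of the 2 genes that set NRF2 activity passed the test. Nfe2l2 (Entrez ID 18024; chromosome 2, 75675513 to 75704663 in GRCm38) is listed in the authors' deposited table at 1543 normalized reads for WT and 1464 for Huwe1_LKO, a log2 fold change of -0.08 (SE 0.14, adjusted p = 0.847). Keap1 (Entrez ID 50868; chromosome 9, 21229730 to 21239332) stood at 987 and 965, with a deposited log2 fold change of -0.03 (SE 0.08, adjusted p = 0.89). The 95% interval of the ratio of Huwe1_LKO to WT ran from 0.786 to 1.15 for Nfe2l2 and from 0.877 to 1.09 for Keap1. Keap1 had one of the tightest estimates at its level, with an SE below that of all but 1.00% of 2894 genes within 2-fold of its mean value. Both signs turned when fold changes were centred on the most abundant eighth of genes.

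Glutathione synthesis gave the only rise. Glutamate-cysteine ligase, the rate-limiting enzyme, consists of a catalytic subunit (Gclc) and a modifier subunit (Gclm) that raises its affinity for glutamate and eases feedback by glutathione. Gclm (Entrez ID 14630; chromosome 3, 122245487 to 122267215) went from 2168 to 2988 normalized reads per the authors' deposited table, 1.38-fold higher (log2 fold change 0.46, SE 0.10, adjusted p = 0.000111). Gclc (Entrez ID 14629; chromosome 9, 77754535 to 77794489) is given there as 5452 in WT and 4957 in Huwe1_LKO, a deposited log2 fold change of -0.14 that did not pass (SE 0.20, adjusted p = 0.833). Gclm overlaps a long non-coding gene and a pseudogene in RefSeq, and their reads cannot be told apart from its own where counting ignores strand. The SE of Gclc was above that of 85.6% of 681 genes within 2-fold of its level, and that of Gclm below the median (0.13) of 1292 such genes. Per kilobase, the ratio of Gclm to Gclc RNA was 0.66 in WT and 1.00 in Huwe1_LKO. The 2 log2 fold changes differ by 0.60, which was not tested, since the values of the 2 genes in each liver were not analysed here.

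Ugdh had the largest fall and the smallest p of the 10 genes. It encodes UDP-glucose 6-dehydrogenase, which makes the UDP-glucuronate used for glucuronidation of drugs, bilirubin and steroids and for proteoglycans. Ugdh (Entrez ID 22235; chromosome 5, 65413207 to 65435842) went from 4088 to 2590 normalized reads per the authors' deposited table, 1.58-fold lower (log2 fold change -0.66, SE 0.13, adjusted p = 2.45e-05). Its unadjusted p ranked 295th among 16640 genes, and that of Gclm 365th. Both calls held under every alternative centring, gene filter and threshold tried.

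In thioredoxin and glutathione reduction, Srxn1 fell, while Gsr and Txnrd1 did not pass. Srxn1 (Entrez ID 76650; chromosome 2, 152105524 to 152111376), sulfiredoxin, which restores overoxidised peroxiredoxins, went from 930 to 711 normalized reads by the authors' deposited table (a log2 difference of -0.39, SE 0.14, adjusted p = 0.0468). This call was close to the threshold and was lost with the most abundant eighth of genes centred on 0 (log2 fold change -0.31, adjusted p = 0.148; range of adjusted p over the alternatives 0.0312 to 0.148). Gsr (Entrez ID 14782; chromosome 8, 33653238 to 33698162), glutathione reductase, had almost the same difference, 901 against 694 normalized reads (deposited log2 fold change -0.38), but a larger SE of 0.19, and did not pass (unadjusted p = 0.0427, adjusted p = 0.222). Txnrd1 (Entrez ID 50493; chromosome 10, 82833951 to 82897724), the cytosolic thioredoxin reductase, stood at 1823 and 1772 per the authors' deposited table (a log2 difference of -0.04, SE 0.11, adjusted p = 0.898). The sign of Txnrd1 turned under that same centring, and whether Srxn1 and Gsr differ from Txnrd1 was not tested. Eid3, a gene within the span of Txnrd1, is listed at 0.64 and 0.60 normalized reads, and a pseudogene and a small nucleolar RNA gene overlap Gsr in RefSeq.

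The 2 target genes most often used as indicators of NRF2 activity did not pass. Nqo1 (Entrez ID 18104; chromosome 8, 107388225 to 107403205), a quinone reductase, is listed in the authors' deposited table at 151 normalized reads for WT and 154 for Huwe1_LKO (a log2 difference of 0.03, SE 0.24, adjusted p = 0.971). The 95% interval of its ratio ran from 0.742 to 1.41, so this comparison does not show that its level was equal in both genotypes. Hmox1 (Entrez ID 15368; chromosome 8, 75093618 to 75100593), haem oxygenase, which opens the haem ring, stood at 354 and 293 (deposited log2 fold change -0.27, SE 0.29, adjusted p = 0.722). Its SE was the largest of the 10 and above that of 95.3% of 4438 genes within 2-fold of its level.

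**Figure D2:**
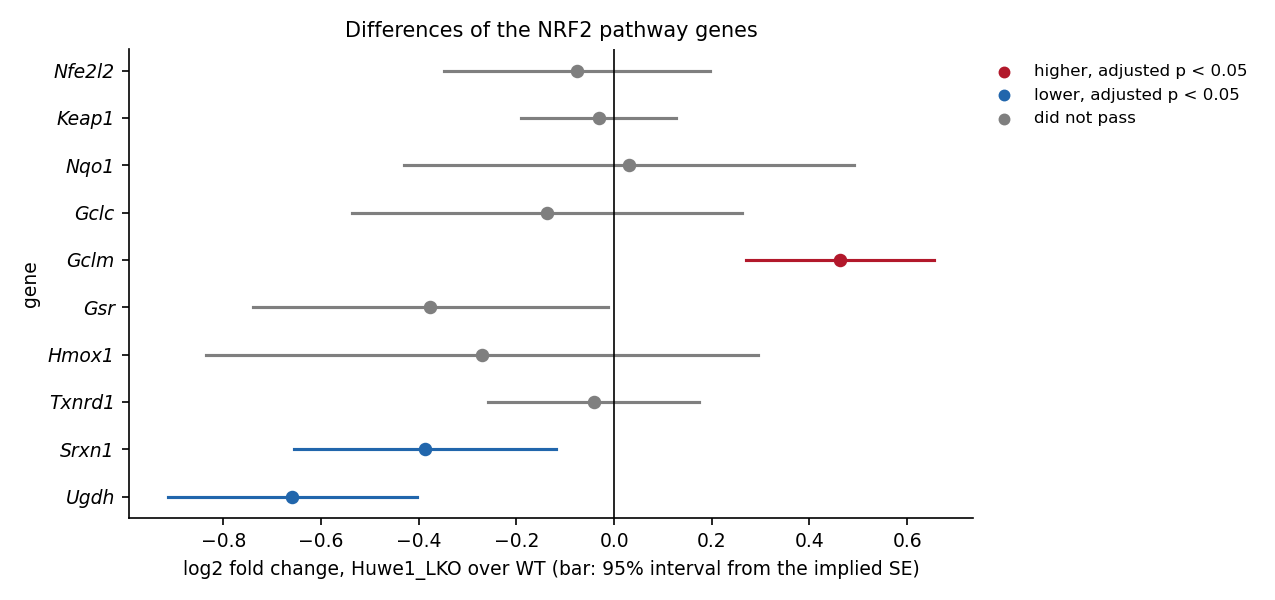
Log2 fold change of Huwe1_LKO over WT for the 10 genes (points) with the 95% interval from the implied SE (bars). The intervals of Gclm (0.27 to 0.66), Ugdh (-0.91 to -0.40) and Srxn1 (-0.66 to -0.12) lie to one side of 0; that of Gsr (-0.74 to -0.01) does as well, but its adjusted p is above 0.05.

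Macrophages that clear red cells are a known site of Hmox1 expression, so markers of liver cell types were read beside it. Of 12 Kupffer cell markers, none was called by the authors' DESeq2 comparison and 0 had an unadjusted p under 0.05. As log2 fold changes, 11 of these 12 lay above 0 (median 0.245), and Adgre1 lay below 0 (-0.19). Their summed value was 4213 in WT and 4940 in Huwe1_LKO, and the lowest single value was 31.6. Of 8 hepatocyte markers, 2 rose (Serpina1a, log2 fold change 0.49, and Apoa1, 0.52). In all 6 lay above 0, while Tat (-0.48) and Asgr1 (-0.04) lay below 0 without passing. Their sum went from 1715970 to 2278975 per the authors' deposited table, far above every other marker list. Most of that sum was Alb (1192099 and 1629594), which did not pass (adjusted p = 0.0631 by DESeq2). Among 10 neutrophil markers, S100a9 (1.63) and Retnlg (1.58) rose, as deposited log2 fold changes, with a summed value of 170 in WT and 325 in Huwe1_LKO. In this list 9 markers lay above 0, and Ly6g lay below 0 (-0.58) without passing. Values were low, down to 2.52 normalized reads, and Retnlg went from 3.78 to 11.3 (adjusted p = 0.0489 by DESeq2). Endothelial, stellate, cholangiocyte, lymphocyte and erythroid lists had no called gene by DESeq2, with 2 genes in all at an unadjusted p under 0.05. The part of these shifts in the values of the 10 genes was not tested. In whole tissue, fewer cells of a type and less RNA per cell cannot be told apart.

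**Figure D3:**
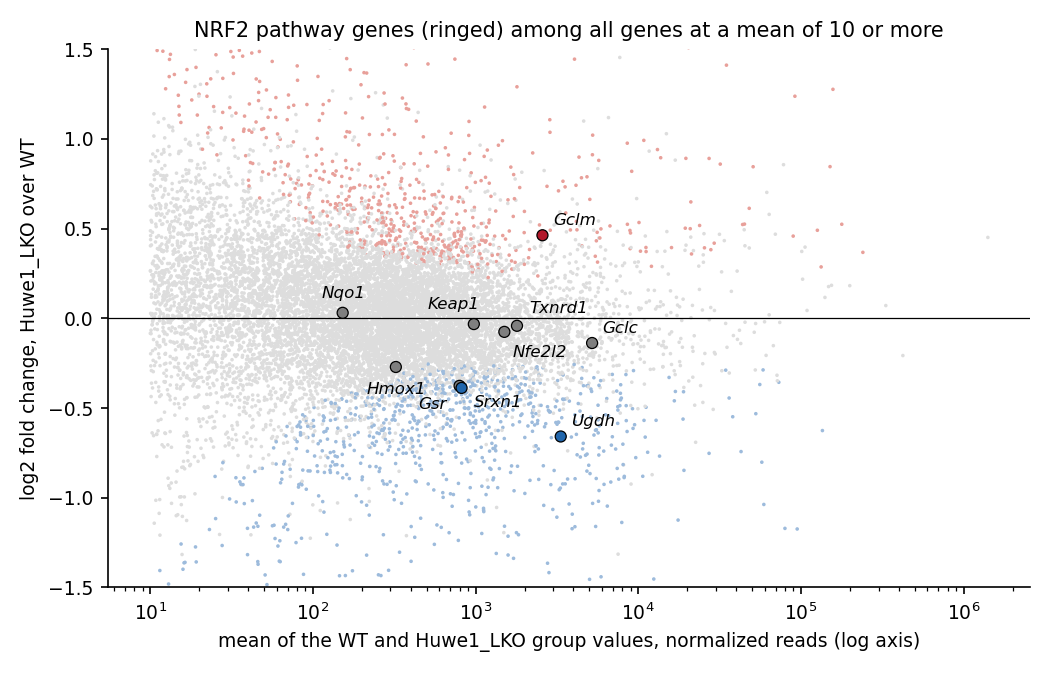
Log2 fold change against the mean of both group values (log axis) for genes at a mean of 10 or more, with the 10 genes ringed; red and blue dots are genes the authors' adjusted p calls higher and lower. Ugdh and Gclm lie among the called genes of their level, Srxn1 and Gsr side by side at the edge of the called genes, and 193 genes fall outside the axis limits of 1.5.

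Around the 10 genes, 8 lists of 158 other genes were read by role. Of these genes, by the authors' deposited table, 15 rose and 28 fell, against 4.41% and 5.56% of all genes and a median log2 fold change of 0.02 over all genes. Among genes at a mean of 100 or more, a level that not all list genes reach, 5.95% rose and 9.04% fell, with a median of -0.02. The counts of each list below are to be read beside these shares. Of 20 genes that control NRF2, 4 rose and none fell by DESeq2 (0 lower at an unadjusted p under 0.05), with a median log2 fold change of 0.03. Risers included the acetyltransferase gene Ep300 (from 465 to 637 normalized reads, adjusted p = 0.00249), a coactivator of many factors including NRF2, the chromatin remodeller Chd6 (258 to 366) and the repressor Bach2 (74.5 to 124) in the authors' deposited table. For Bach1, the repressor that competes with NRF2 at Hmox1, the deposited log2 fold change was 0.44, short of the threshold (adjusted p = 0.216). The partners of KEAP1 in the ligase, Cul3 (0.02) and Rbx1 (0.01), had deposited log2 fold changes near 0, as did Sqstm1 (-0.10), whose product p62 competes with NRF2 for KEAP1, and none of them passed.

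Further genes of glutathione metabolism were split. Of 23 genes, the authors' deposited table has 2 that rose and 3 that fell. Their median log2 fold change was -0.15, and -0.08 over the 20 genes at a mean of 10 or more. With p-values adjusted over genes at a mean of 100 or more, which leaves out Ggct and Slc1a4, 1 of the 23 fell. Glutathione synthetase (Gss), which carries out the step after glutamate-cysteine ligase, rose from 988 to 1429 normalized reads (log2 fold change 0.53, SE 0.10, adjusted p = 1.53e-05), a difference close to that of Gclm. The glutathione peroxidase Gpx1 rose from 24275 to 31650 (adjusted p = 0.00283) in the same deposited table. Ggct, which breaks down gamma-glutamyl products, fell from 111 to 58.6 per the authors' deposited table, the mitochondrial glutaredoxin Glrx5 from 1625 to 1116, and the amino acid carrier Slc1a4 from 120 to 66.7. Slc7a11, the cystine carrier known as an NRF2 target, stood at 2.11 and 1.86 normalized reads and did not pass.

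Among 18 genes of the thioredoxin system, the authors' deposited table shows 4 that fell and 2 that rose, around a median log2 fold change of -0.17. The fallers include the mitochondrial peroxiredoxin Prdx3 (from 1947 to 1405 normalized reads, adjusted p = 0.00165) and the mitochondrial thioredoxin reductase Txnrd2 (600 to 431, adjusted p = 0.0187), along with Msra and Prdx6. The mitochondrial thioredoxin Txn2 (deposited log2 fold change -0.21, adjusted p = 0.318) and Prdx5 (0.35, adjusted p = 0.0701) did not pass. Prdx4, a peroxiredoxin of the endoplasmic reticulum, and the methionine sulfoxide reductase Msrb3 rose, with deposited log2 fold changes of 0.51 and 0.66. Of the peroxiredoxins known as sulfiredoxin substrates, Prdx3 thus fell and Prdx4 rose, while Prdx1 (-0.06) and Prdx2 (0.06) did not pass. With the most abundant eighth of genes centred on 0, 1 gene of this list fell and 3 rose.

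Of 12 genes listed around the supply of NADPH, the reductant used by GSR, TXNRD1 and NQO1, 7 fell at the RNA level. The list also holds genes whose enzymes do not form NADPH themselves, such as Nadk. Each of the 12 genes lay below 0 as a log2 fold change in the authors' deposited table. None rose by DESeq2 (0 higher at an unadjusted p under 0.05), and the median was -0.38. Pgd, an oxidative enzyme of the pentose phosphate pathway, fell from 1220 to 634 normalized reads (adjusted p = 4.26e-17), the NAD kinase Nadk from 3888 to 2602 (adjusted p = 1.61e-11) and Idh1 from 7793 to 5349 in the deposited table. Malic enzyme (Me1), also a gene of fat synthesis, had the largest fall, with a deposited log2 fold change of -2.81. G6pdx, which starts the pentose phosphate pathway, stood at 93.0 and 87.6 and did not pass. With the most abundant eighth of genes centred on 0, 6 of the 12 fell.

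Of the genes around haem, oxidants and glucuronidation, 2 rose and 5 fell. Ftl1, the ferritin light chain, fell from 82160 to 64175 normalized reads (adjusted p = 0.000643) and Hrg, a haem-binding plasma protein, rose from 19613 to 28078, by the authors' deposited table the only 2 of 10 genes of haem and iron handling to pass. Biliverdin reductases, which act after HMOX1, did not pass (deposited log2 fold changes of -0.08 for Blvra and -0.19 for Blvrb). Of 14 genes of superoxide and hydrogen peroxide, Cat (catalase, from 64370 to 52741), Aox3 and Hao2 fell and none rose by DESeq2 (1 higher at an unadjusted p under 0.05). With the most abundant eighth centred on 0, that list had 1 fall and 1 rise. The median log2 fold changes of these lists were -0.10 for haem and iron, 0.01 for superoxide and hydrogen peroxide, and -0.12 for glucuronidation. Of 21 genes listed around glucuronidation, Ugt1a5 alone fell (2080 to 417) and Ugt2b36 alone rose (10850 to 13266) in the authors' deposited table. Not all 21 encode enzymes that use the product of UGDH. Ugt1a genes share their last exons and Ugt2b genes are close copies, so reads may have been split between them. At an adjusted p under 0.1, 4 glucuronidation genes fell and 2 genes of haem and iron handling did. For Ugp2, which makes the substrate of UGDH, the deposited log2 fold change was -0.46, short of the threshold (adjusted p = 0.0774).

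Other genes often named as NRF2 targets went both ways. Of 40, the authors' deposited table calls 5 higher and 9 lower, and the median log2 fold change was -0.15. The 40 leave out NRF2 targets placed in the lists above, such as Slc7a11, so these counts depend on how the lists were drawn. The risers were Gstp2 (4.03), Gstp1 (1.41), the prostaglandin reductase Ptgr1 (1.32), Gsta2 (0.90) and Cyp2a5 (0.89), as deposited log2 fold changes. Gstm4 (-0.98) and the microsomal transferase Mgst1 (-0.53) had the smallest p among those that fell. Within a class, as for Gstp1 and Gstp2, glutathione transferase genes are close copies, so reads may have been split between them as well.

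**Figure D4:**
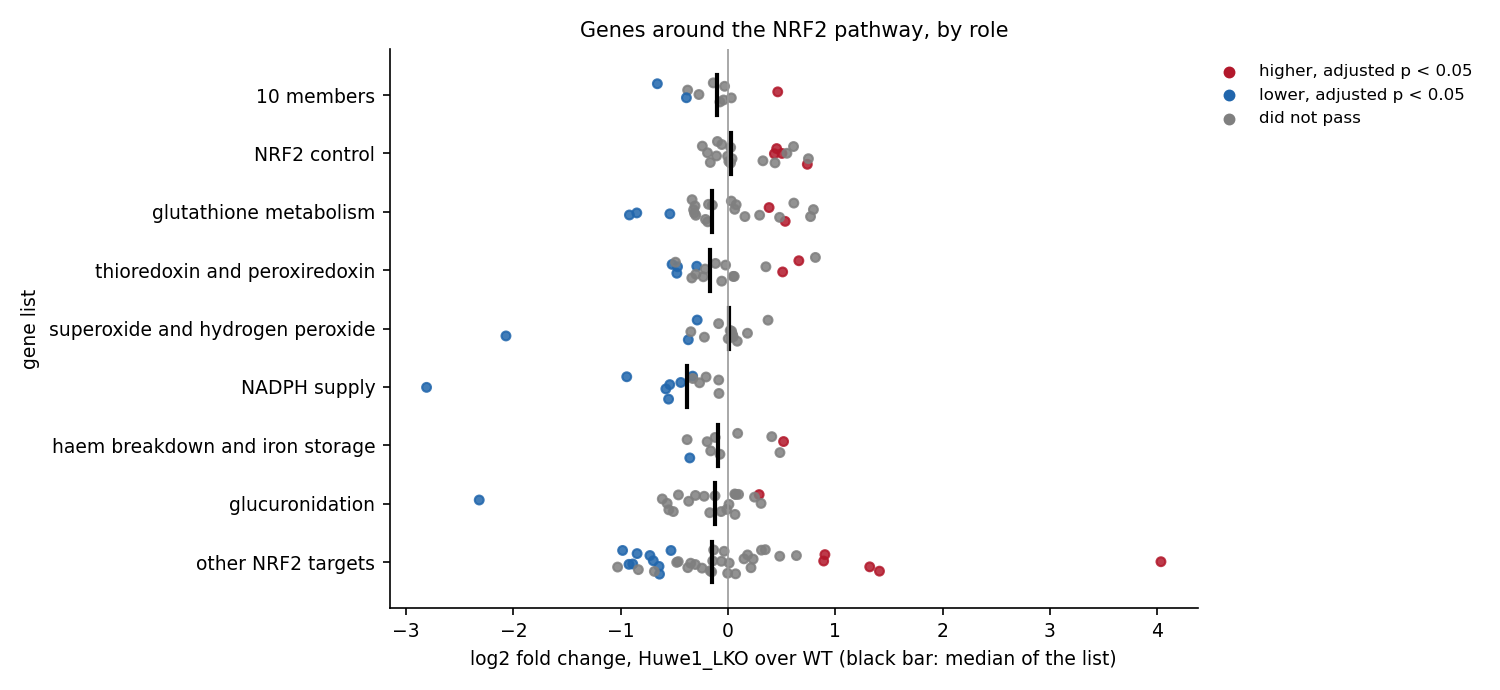
Log2 fold change of Huwe1_LKO over WT for each gene of the 8 lists and the 10 members (points, coloured by the authors' call; vertical scatter within a list is arbitrary), with the median of each list as a black bar. Genes of NADPH supply all lie below 0, while the lists of NRF2 control and of other NRF2 targets hold their called genes on 1 side and on both sides of 0.

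The annotation deposited with the table places 5 of the 10 genes (Nqo1, Gclc, Gclm, Hmox1 and Srxn1) under response to oxidative stress. Of 95 genes with that term, the authors' deposited table calls 4 higher and 18 lower, 23.2% in all, and Gclm is 1 of the 4 that rose. Gclc, Gclm and Gsr are annotated to glutathione metabolic process, where 6 of 38 genes rose and 8 fell, 36.8% in all. Of 56 genes under cellular response to oxidative stress, which holds Nfe2l2, Txnrd1 and Srxn1, none rose by DESeq2 (3 higher at an unadjusted p under 0.05) and 5 fell, 8.93% in all. Over all genes listed the share was 9.97%, and 15.0% among genes at a mean of 100 or more. These terms were picked after the table had been seen.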

How the data were processed

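RNA of 8 whole livers, 4 per genotype, was isolated with a column kit and sequenced by a service provider, per the labels' protocols. The build mm10 and the tool DESeq2 are named, with no version, in the submitters' processing notes, with aligner and counter not given in the sources used here. For each gene and genotype, the authors deposited 1 signal value (normalized reads), besides a log2 fold change, and unadjusted and adjusted p-values, per the file headers. The deposited log2 value equalled the log2 ratio of the group values to within 4.71e-08, and the adjusted p-value a Benjamini-Hochberg adjustment over 16640 genes to within 1.74e-06. In 707 genes with about 1 read in all, the deposited log2 fold change was at most 0.12 in size, so folds of low genes appear shrunken toward 0. The group values have that same ratio, so those of low genes appear to carry the shrinkage and are not plain means over livers. The mean values of the 10 members lay between 152 and 5204.

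A count model or limma on livers could not be fitted, as the design allowed for, with 1 value per genotype. Calls are the authors', at an adjusted p under 0.05. The SE was taken as the absolute log2 fold change over the normal quantile of the unadjusted p, which presumes a Wald test, and 95% intervals use it. Nothing says the livers share litters or days, and the p-values measure the spread among these livers only.

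Members and gene lists were chosen with earlier results of these data known. Symbols of 222 of 223 list entries were found. Named were all members, the up to 4 called genes of each list with the smallest p, and Huwe1; Slc1a4, Prdx4, Msrb3, Ptgr1, Gsta2, Cyp2a5 and genes given as not passing were added after their values were seen, and 1 gene the rule names is not reported here. Alternatives were 2 centrings, 2 minimum mean values (10 and 100) for the adjustment, and thresholds of 0.01 and 0.1. Promoter windows were read from RefSeq (GRCm38.p6). The Benjamini-Hochberg adjustment and the SE taken from a p were tested on simulated data without shrinkage, and the other steps were not. Tools were scipy 1.17.1, pandas 2.3.3 and matplotlib 3.10.9.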

Additional observations from a re-analysis of the deposited data

How the results depend on the processing

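Of 60 member values (10 genes under 6 alternatives), 55 kept their direction and their side of the threshold. With the most abundant eighth of genes (2080) centred on 0 (their median of -0.08 subtracted from every gene), the log2 fold changes of Nfe2l2, Keap1 and Txnrd1 turned to 0.00632, 0.0498 and 0.0402, none of them passing, and Srxn1 did not pass at -0.31. At an adjusted p under 0.01 Srxn1 (-0.39) did not pass either. Each of these 2 settings leaves 1 member called lower, and the second leaves 7 pathway genes called higher, 2 of them in NRF2 control, 3 among other targets and 0 in the thioredoxin, haem and glucuronidation lists. Gclm ranged from 0.45 to 0.54 and Ugdh from -0.67 to -0.58, both passing throughout; Gsr passed under none of the 6 (adjusted p 0.151 to 0.382). Over all genes, that centring gave 1168 higher and 625 lower, 65.1% higher against 44.2%, and an adjusted p under 0.01 gave 414 and 561. Without division by gene length, the ratio of Gclm to Gclc was 0.398 in WT and 0.603 in Huwe1_LKO.

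No paired analysis was possible because the table holds 1 value per genotype; for the same reason leaving out a liver was not run.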
